A study of Arabidopsis thaliana with 2 samples.

Results

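The genes described here are 10 loci of *Arabidopsis thaliana* that encode histone lysine methyltransferases with a SET domain: the trithorax homologs *ATX1* to *ATX5*, the trithorax-related genes *ATXR3*, *ATXR5*, *ATXR6* and *ATXR7*, and *SDG8*. They were chosen by locus name, without use of their values but with earlier results of these data known. In all, 17419 loci were listed in at least 1 of 2 mRNA-Seq libraries. Of the 10 genes, 8 were listed in CC1 and 9 in CC2. The libraries are replicates of 1 condition, central cells of wild-type plants of the accession Landsberg *erecta*, cut by laser-assisted microdissection (LAM) from the ovules of emasculated, fixed flowers, with a pool of about 450 cells for each replicate. After fertilization the central cell becomes the endosperm, the tissue that feeds the embryo. Since no second condition was sampled, no test was made, and the SD over the replicates (n = 2) covers cells, dissection and amplification together. The values are hits, reads weighted over their alignments and summed over the transcripts of a locus. They were scaled to 1000000 listed hits of the replicate (HPM). Loci under 5 hits, or without hits toward a transcript's 3′ end, had been dropped from the lists, so that an unlisted locus was not measured as 0.

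The SET domain transfers methyl groups to lysines of the histone tails. Trithorax proteins, first known from *Drosophila*, methylate lysine 4 of histone H3 (H3K4) at transcribed genes and oppose the Polycomb proteins, which methylate lysine 27 (H3K27) at silent ones. In *Arabidopsis*, *ATX1* to *ATX5*, *ATXR3* and *ATXR7* act on H3K4. *SDG8* acts on lysine 36 (H3K36) of transcribed genes, and *ATXR5* and *ATXR6* place a single methyl group on H3K27 in heterochromatin as the DNA is replicated. Polycomb activity in the central cell restrains the endosperm until fertilization.

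The annotated domains and the gene structure set the members apart before any level is considered. In the RefSeq annotation of TAIR10.1, all 10 proteins carry the SET domain. *ATX1* to *ATX5* add a PWWP domain and a PHD zinc finger, and *ATX1* and *ATX2* alone of the 10 have FY-rich domains. *ATXR5* and *ATXR6* have a PHD finger, *ATXR7* a GYF domain, *SDG8* a CW-type zinc finger and an AWS domain, and *ATXR3* no other annotated domain. The longest transcripts of *ATX1* to *ATX5* measured 3615 to 4565 bp in 22 to 24 exons, and that of *ATXR3* 7855 bp in 21 exons. The transcript of *SDG8* had 5943 bp and that of *ATXR7* 5364 bp, while *ATXR5* with 1599 bp and *ATXR6* with 1347 bp had 6 exons each. The median over the 12944 nuclear protein-coding loci listed in both replicates was 1712 bp.

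Close paralogs can share reads, so the longest stretches that paralogs have in common are shown first. They are given for the spliced coding sequence of the Columbia reference (RefSeq, TAIR10.1), with the shared bases in capitals and 12 flanking bases in lower case. *ATX1* and *ATX2* had 51 bases in common, interrupted by an intron in both genes (chr2:13458175-13458346, minus strand, and chr1:1757977-1758151, plus strand):
ATX1: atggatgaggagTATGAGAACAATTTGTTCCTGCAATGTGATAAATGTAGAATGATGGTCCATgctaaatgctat
ATX2: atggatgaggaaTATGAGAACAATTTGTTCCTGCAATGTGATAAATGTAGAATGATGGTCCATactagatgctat
*ATX4* and *ATX5* had 44 bases in common within an exon (chr4:13898136-13898179 and chr5:21681109-21681152, both plus strand):
ATX4: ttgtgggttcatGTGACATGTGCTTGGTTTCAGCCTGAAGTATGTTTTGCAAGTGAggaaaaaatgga
ATX5: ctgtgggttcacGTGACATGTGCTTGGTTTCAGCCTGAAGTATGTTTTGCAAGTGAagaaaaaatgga
*ATXR5* and *ATXR6* had 17 bases in common (chr5:3039262-3039278 and chr5:8295303-8295319, both minus strand):
ATXR5: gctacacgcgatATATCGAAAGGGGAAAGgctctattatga
ATXR6: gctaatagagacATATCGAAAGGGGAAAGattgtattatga

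A read of 50 bases could therefore be placed exactly on both paralogs at 2 positions of *ATX1* and *ATX2*, and at none of *ATX4*, *ATX5*, *ATXR5* and *ATXR6*. *ATXR3*, *ATXR7* and *SDG8* had no such position either. *ATX3* had 65 of 3728, all in coding sequence and at least 1887 bp from the 3′ end. These matched intergenic sequence and 3 other loci, AT3G62500, AT5G28340 and AT5G28380, none of which was listed in either replicate. Words of 25 bases, which also let through reads with a mismatch, were found elsewhere for 9.35% of the positions of *ATX3* and for at most 1.87% of those of any other member. All values of the members were whole numbers but for the 394.545 hits of *ATXR3* in CC2, whereas over all listed loci 75.6% (CC1) and 75% (CC2) were whole. The reads came from Landsberg *erecta*, whose own sequence was not examined here.

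The listed hits amounted to 15257122 in CC1 and 14857500 in CC2, with 14454 and 16391 loci. All 6 marker genes of the central cell (*FWA*, *FIS2*, *MEA*, *AGL80*, *AGL61* and *DME*) were listed in both replicates, with 1573 HPM in CC1 and 1302 in CC2. All 5 *EC1* genes of the egg cell were listed as well, with 1355 and 902 HPM, as were 3 of 4 synergid markers, the *LURE1* genes, with 151 and 679 HPM, while the synergid regulator *MYB98* was not listed. Of 3 ovule markers, *INO* was not listed, *BAN* had 72 and 17 hits and *STK* 172 in CC2 only, and the leaf genes *RBCS1A* and *LHCB1.1* had 1402 and 1504 HPM. The egg cell and central cell markers were thus higher in CC1 and the *LURE1* genes in CC2. The paper considered cross-contamination from egg cells and synergids unlikely, since the central cell can be separated well from both. Whether the hits of the methyltransferase genes came in part from cells other than the central cell was not tested.

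Most of these methyltransferase genes were listed in both libraries, about as often as SET-domain loci in general. Of the 10, 8 were listed in both replicates, against 47.2% of the 27444 nuclear protein-coding loci of the annotation. The share was 64.8% of the 2399 such loci with a transcript over 3000 bp, and 37 of the 47 loci with an annotated SET domain were listed in both (78.7%, the 10 genes included). Together, the members took 267 HPM in CC1, against 190 in CC2, which is a mean of 228 ± 54.5 HPM (SD, n = 2). These are 23.9% and 18.1% of the hits on the SET-domain loci. The SET-domain locus with the most hits was none of the 10 but the Polycomb gene *MEA* (AT1G02580), which silences genes in the central cell, with 284 ± 31.9 HPM (SD, n = 2).

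**Figure D1:**
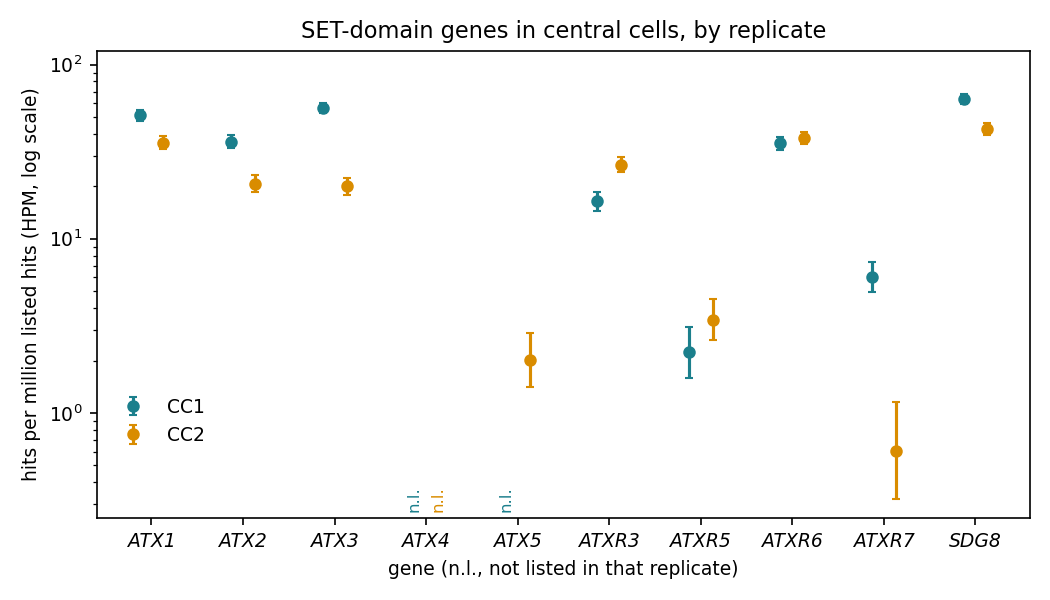
Hits per 1000000 listed hits (HPM, log scale) of each of the 10 genes in CC1 and CC2, with 95% Wilson intervals that cover counting error only. ATX4 was not listed (n.l.) in either replicate and ATX5 not in CC1, and the intervals of the replicates overlap for ATXR5 and ATXR6 only.

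*ATX1* and *ATX2*, the members closest to *Drosophila* Trithorax, were both found in both replicates and were both higher in CC1. *ATX1* (AT2G31650, chromosome 2, 13455272 to 13462431), an H3K4 methyltransferase known for activating floral homeotic genes and *FLC*, had 779 hits in CC1 and 530 in CC2. This was 43.4 ± 10.9 HPM (SD, n = 2), a difference between the replicates of 1.43-fold. *ATX2* (AT1G05830, chromosome 1, 1754130 to 1761909) had 550 hits in CC1 and 307 in CC2, or 28.4 ± 10.9 HPM, with a difference of 1.74-fold. Per kb of transcript, *ATX1* was above *ATX2* by 1.63-fold within CC1 and by 1.99-fold within CC2. Over both replicates, the ranges of *ATX1* and *ATX2* were 9.87 to 14.1 and 4.96 to 8.65 HPM per kb, which did not overlap. In HPM, not divided by length, the lower value of *ATX1* (35.7) fell just short of the higher value of *ATX2*, and the ranges overlapped.

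Of *ATX3*, *ATX4* and *ATX5*, which act redundantly on H3K4, *ATX3* accounted for most of the listed hits. *ATX3* (AT3G61740, chromosome 3, 22850811 to 22857016) had 861 hits in CC1 and 298 in CC2. The replicates thus differed 2.81-fold, which left a mean of 38.2 ± 25.7 HPM (SD, n = 2). *ATX5* (AT5G53430, chromosome 5, 21677146 to 21684122) was listed in CC2 only, with 30 hits or 2.02 HPM (95% Wilson interval 1.41 to 2.88), and *ATX4* (AT4G27910, chromosome 4, 13893915 to 13900630) in neither replicate. Within CC2, *ATX3* had 5.31 and *ATX5* 0.44 HPM per kb of transcript. In the annotation of TAIR10.1, *ATX5* overlaps AT5G53440 on the opposite strand by 979 bp of exons. AT5G53440 had 279 hits in CC1 and 758 in CC2. The libraries were not stranded, so that reads within the overlap cannot be assigned to either gene by strand. How many of the 30 hits of *ATX5* lay there was not examined.

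*ATXR3* and *ATXR7*, the remaining H3K4 enzymes, lay at unequal levels. *ATXR3* (*SDG2*, AT4G15180, chromosome 4, 8651406 to 8662587), the main enzyme for trimethylation of H3K4 and needed for the formation of functional gametophytes, had 250 hits in CC1 and 394.545 in CC2. This was 21.5 ± 7.19 HPM (SD, n = 2), and the level was 1.62-fold higher in CC2. *ATXR7* (*SDG25*, AT5G42400, chromosome 5, 16953515 to 16961245), which with *ATX1* keeps *FLC* active, had 92 hits in CC1 and 9 in CC2. At 6.03 HPM in CC1 (Wilson interval 4.92 to 7.39) and 0.61 in CC2 (0.32 to 1.15), the replicates differed 9.95-fold, and this was the largest difference among the members. The lower value is close to the minimum of 5 hits for a locus to be listed, and per kb of transcript *ATXR3* was above *ATXR7* by 1.86-fold in CC1 and by 29.9-fold in CC2.

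The H3K36 methyltransferase *SDG8* took the most hits of the members in both replicates. *SDG8* (*EFS* or *ASHH2*, AT1G77300, chromosome 1, 29039922 to 29049454), named for the early flowering of its mutants, had 966 hits in CC1 and 635 in CC2, or 53.0 ± 14.5 HPM (SD, n = 2). These were 23.7% and 22.5% of the hits on the 10 genes, and more hits than 80.6% of the listed protein-coding loci had in CC1 and 75.7% in CC2. The level was 1.48-fold higher in CC1. *SDG8* overlaps AT1G77290 on the opposite strand by 296 bp of exons, and AT1G77290 had 154 hits in CC1 and 132 in CC2.

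Of the H3K27 monomethyltransferases, *ATXR6* was far above *ATXR5* in both replicates. *ATXR6* (AT5G24330, chromosome 5, 8295110 to 8297159), whose expression is tied to DNA replication, had 539 hits in CC1 and 564 in CC2. At 36.6 ± 1.86 HPM (SD, n = 2) and a difference of 1.07-fold, it was the steadiest of the members between the replicates. *ATXR5* (AT5G09790, chromosome 5, 3038978 to 3041206) had 34 hits in CC1 and 51 in CC2, or 2.83 ± 0.85 HPM. Per kb of transcript, *ATXR6* was 18.8-fold above *ATXR5* in CC1 and 13.1-fold in CC2, with no overlap of the replicates. The transcripts of these genes are of similar length, so this comparison depends little on the division by length. For both genes the counting intervals of CC1 and CC2 overlapped.

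Scaled to transcript length, *ATXR6* led the members. It had 27.2 ± 1.38 HPM per kb (SD, n = 2) and was the only member whose mean lay above 12.7 HPM per kb, the median of the means over the protein-coding loci listed in both replicates. Within a replicate, *ATX1* had more HPM per kb than 56.0% of the listed protein-coding loci in CC1 and 52.6% in CC2, and *ATX3* than 57.5% and 38.2%. *ATX1* followed at 9.87 and 14.1 HPM per kb in the replicates. Next came *ATX3* with 10.1 ± 6.81, *SDG8* with 8.92 ± 2.45 and *ATX2* with 6.81 ± 2.61. The ranges of neighbours overlapped from *ATX1* down to *ATX2*. The means of these genes were above the median of 5.25 HPM per kb over the loci with a transcript over 3000 bp. *ATXR3* with 2.73 ± 0.92 HPM per kb lay apart from *ATX2* but overlapped with *ATXR5* at 1.77 ± 0.53. *ATXR7* came last with 0.62 ± 0.72 HPM per kb, its range clear of that of *ATXR5*. Coverage in these libraries was shifted to the 3′ ends, so that division by the full length lowers long transcripts too much. On the scale of HPM, without the division, the order was *SDG8*, *ATX1*, *ATX3*, *ATXR6*, *ATX2*, *ATXR3*, *ATXR7* and *ATXR5*. The ranges of neighbours then overlapped everywhere except between *ATXR3* and *ATXR7*, which separated 6 genes with 21.5 HPM or more from both genes with 3.32 HPM or less.

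**Figure D2:**
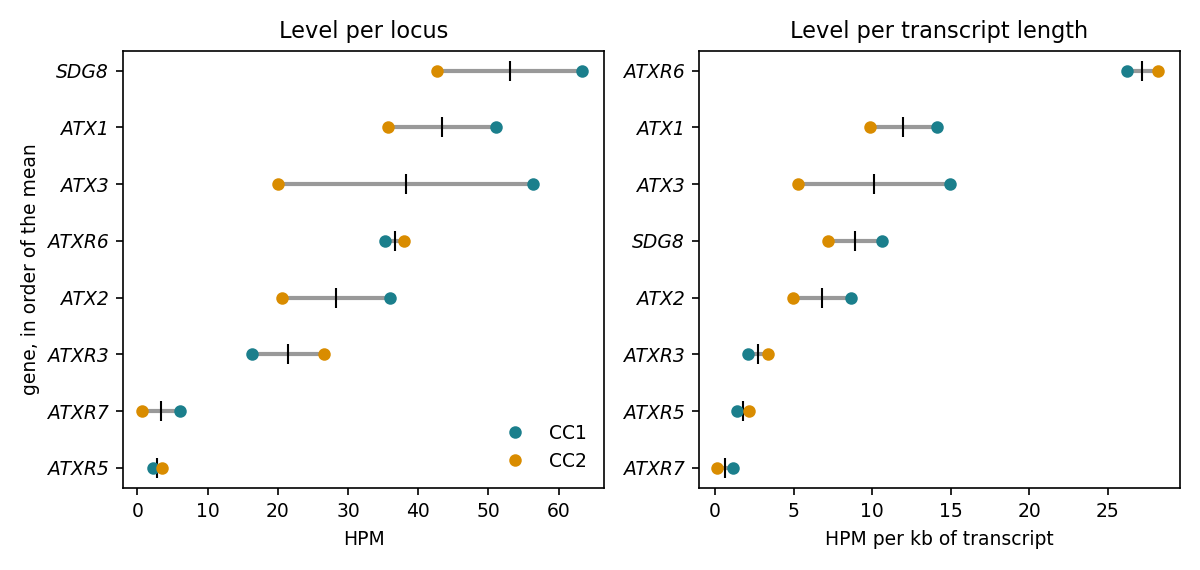
Levels of the 8 genes listed in both replicates, as HPM (left) and as HPM per kb of the longest transcript (right), in order of the mean (black tick), with a point for each replicate and a bar for their range. ATXR6 stands apart on the right with 27.2 HPM per kb, and lies within the range of ATX3 on the left.

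The replicates differed at these genes about as much as at other loci. Among the 8 genes listed in both replicates, the median difference was 1.58-fold, against 1.5-fold over all 13426 loci listed in both. *ATX3* and *ATXR7* differed more than 2-fold, 2 of the 8 genes, against 30.2% of all loci and 31.4% of those with a transcript over 3000 bp. Both were higher in CC1, as 15.5% of all loci were by that much, while none of the members and 14.7% of all loci were over 2-fold higher in CC2. Beyond 1.5-fold lay 5 of the 8 members and 50.2% of all loci. For their abundance, both differences were large: in the quintile of loci with a median of 616 hits, 94.2% of the loci differed less than *ATX3*, and in the quintile with a median of 58.5 hits, 94.5% differed less than *ATXR7*. The other 6 genes lay between the 11.8% of loci that differed less than *ATXR6* and the 59.9% that differed less than *ATX2*. By any amount, 5 of the 8 genes were higher in CC1 (*ATX1*, *ATX2*, *ATX3*, *ATXR7* and *SDG8*), against 53.6% of all loci and 50.3% of those with a transcript over 3000 bp. The remaining members *ATXR3*, *ATXR5* and *ATXR6* were higher in CC2. According to the paper, the cDNA of CC1 was slightly smaller in size and lower in yield than that of CC2. Whether this bears on the differences was not tested.

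**Figure D3:**
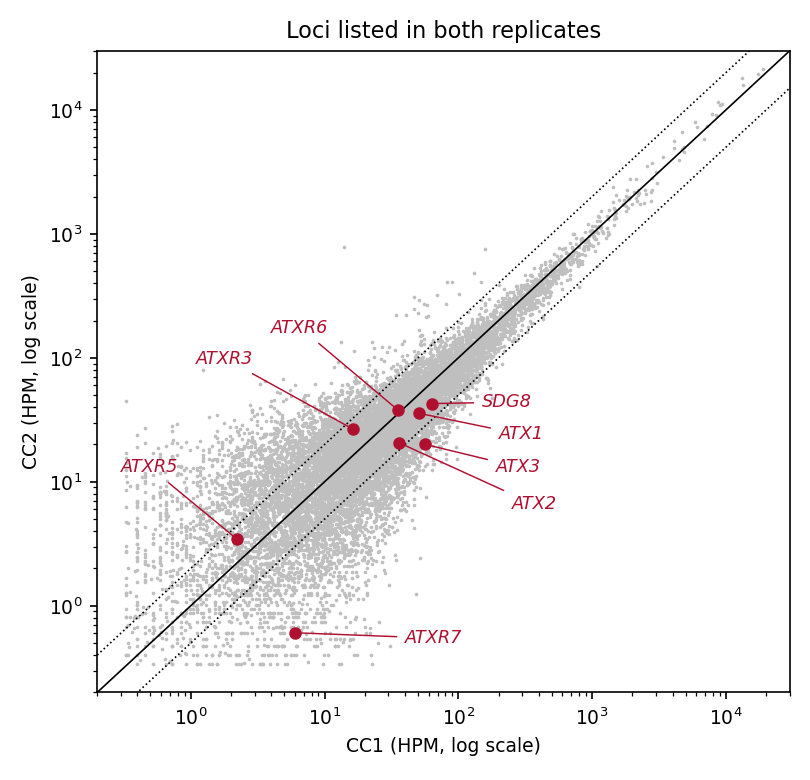
CC2 against CC1 (HPM, log scales) for the 13426 loci listed in both replicates (grey) and 8 of the methyltransferase genes (red), with lines for equal levels (solid) and a 2-fold difference (dotted). ATX3 and ATXR7 lie outside the dotted lines, at 2.81-fold and 9.95-fold.

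Beside the 10 genes, 9 other SET-domain genes of the ASH and ATXR groups were examined, of which 6 were listed in both replicates, against 78.7% of all SET-domain loci. *ASHH4*, a relative of *SDG8*, had 47.3 ± 6.80 HPM (SD, n = 2) or 31.7 HPM per kb, and *ASHR2* had 25.8 ± 6.49 HPM. *ATXR4* had the least with 3.77 ± 1.53 HPM. *ASHH3* with 32 hits and *ATXR1* with 100.6 were listed in CC2 only, and *ASHR3* in neither replicate.

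All 8 genes for the subunits of COMPASS-like complexes, in which the H3K4 enzymes work, and for the trithorax factors ULT1 and ULT2 were listed in both replicates. The share over all nuclear protein-coding loci was 47.2%. *S2LB* (AT5G66240), a partner of *ATXR3*, had 785 hits in CC1 and 625 in CC2, or 46.8 ± 6.64 HPM (SD, n = 2), and *ULT2* had 475.8 and 340 hits. Of the 8 genes, 3 differed over 2-fold, against 30.2% of all loci. *WDR5A*, with 497 hits in CC1 and 76 in CC2, differed 6.37-fold, *ASH2R* with 43 and 258 hits 6.16-fold the other way, and *WDR5B*, the lowest at 7.94 ± 6.19 HPM, 3.45-fold. *WDR5A* and *ASH2R* were singled out after their values had been seen. All 6 genes of the PAF1 complex, which travels with RNA polymerase II and promotes H3K4 methylation, were listed in both replicates, against the same 47.2%. None differed over 2-fold, against 30.2% of all loci. That share depended on abundance, from 52.0% in the quintile of loci with the fewest hits to 4.58% in that with the most. Among the PAF1 genes were *ELF7* with 63.9 ± 11.1 HPM, *VIP5* with 45.3 ± 19.2 and *CDC73* with 14.1 ± 5.85.

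Readers of these marks and the opposing demethylases were found as well. Of 6 genes for reader proteins, 5 were listed in both replicates (47.2% of all nuclear protein-coding loci). Of these 5, 2 differed over 2-fold (30.2% of all loci), *SHL* by 3.06-fold and *EBS*, named after its values had been seen, by 7.16-fold. *ING1*, whose PHD finger binds methylated H3K4, had 2413 hits in CC1 and 2703 in CC2, or 170 ± 16.8 HPM (SD, n = 2). *ING2* had 19.2 ± 2.10 HPM and *SHL* 6.79 ± 4.87, while *MRG1* was listed in CC2 only, with 28 hits. Of 9 genes for H3K4 demethylases, 6 were listed in both replicates (47.2% of all nuclear protein-coding loci) and 3 of these differed over 2-fold (30.2% of all loci). *JMJ14*, with 190 hits in CC1 and 668 in CC2, had 28.7 ± 23.0 HPM, *JMJ17* 16.5 ± 5.56 and *LDL1* 5.21 ± 0.51. *LDL2* had 12 hits in CC2 only, and *JMJ15* and *FLD* were not listed. In HPM per kb, the listed demethylases had a median of 2.89, and the methyltransferase genes of 7.86, over transcripts with medians of 4321 and 3972 bp. This difference was not tested.

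The replication clamp genes that serve *ATXR5* and *ATXR6* were listed in both replicates, with 48.9 ± 21.6 HPM (SD, n = 2) for *PCNA1* and 39.3 ± 11.1 for *PCNA2*, which may share reads. *TSK*, whose protein binds the replication-dependent histone H3.1 on which *ATXR5* and *ATXR6* act, had 45 hits in CC1 and 148 in CC2. Of 6 genes known as targets of the methyltransferases in other tissues, none was listed in CC1. In CC2, the floral homeotic genes *AG* and *AP1* were listed with 41 and 13 hits. The flowering repressors *FLC*, *MAF4* and *MAF5* and the defence regulator *WRKY70* were listed in neither replicate. None of the 6 was thus listed in both replicates, against 47.2% of all nuclear protein-coding loci. This difference was not tested, and many other genes were not listed either.

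**Figure D4:**
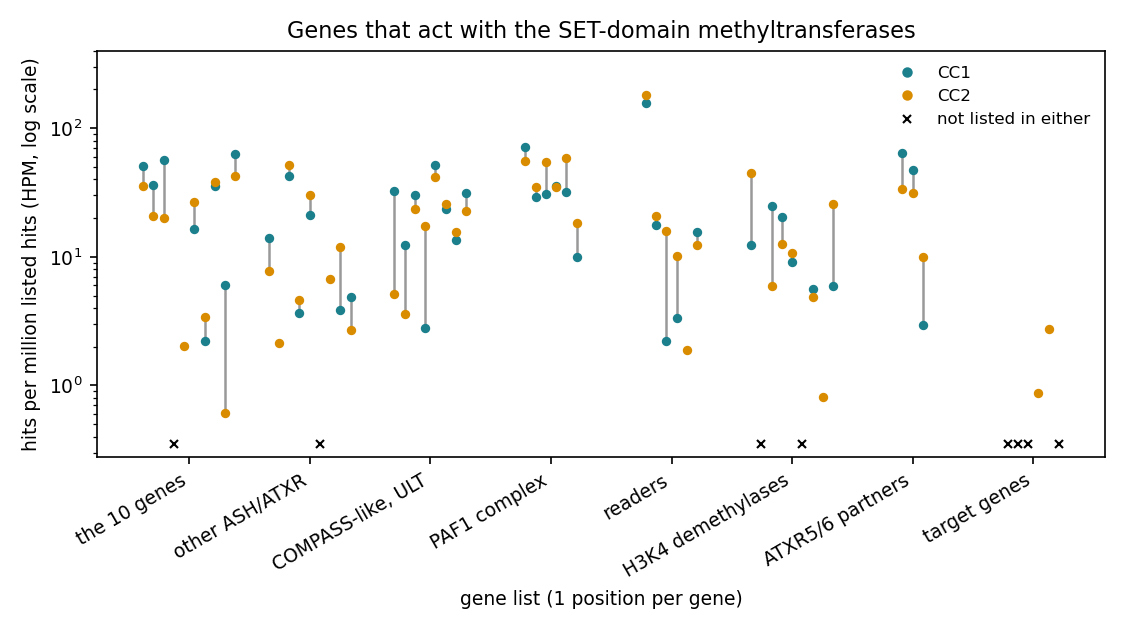
HPM (log scale) of the 10 genes and of the genes of 7 lists in CC1 and CC2, with a line between the replicates of a gene and a cross for genes not listed in either. All genes of the COMPASS-like and PAF1 lists have a point for both replicates, and 4 of the 6 target genes are not listed. Of all nuclear protein-coding loci, 47.2% were listed in both replicates.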

How the data were processed

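Central cells were sequenced in replicates CC1 and CC2. The authors corrected the colour-space reads (SOLiD, 50 bp) and used TopHat 1.2 with the TAIR10 genome. Reads with several alignments were weighted by their unique neighbours, and hits on overlapping loci were divided in proportion to unambiguous hits. The deposited values are expected counts (estimated hits per locus), neither scaled nor pooled. They leave out loci with fewer than 5 hits or with none toward the 3′ end. The libraries were not stranded.

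The hits of a replicate were scaled to a listed total of 1000000 (HPM), and the mean and SD were taken over CC1 and CC2. An unlisted locus added 0 to a sum. HPM were divided by the longest transcript of the locus in the RefSeq annotation of TAIR10.1. The authors had assigned the hits to TAIR10 transcripts, which were not used here, so that lengths and overlaps may differ from theirs. Of the listed loci, 156 had no entry in the RefSeq annotation. Wilson intervals of 95% cover counting error only, and amplified reads are not independent molecules. Fold differences between replicates were set beside all loci listed in both and those of the same quintile of mean hits. Words of 25 and 50 bases of each member's longest transcript were searched on both strands of TAIR10.1 and in the other members' transcripts. InterPro names came from the same annotation.

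There was 1 condition, hence no test and no p-value. All 10 members were named. Of 7 lists with 47 genes, those with the 2 highest and the lowest mean HPM were named, with all not listed in both replicates. The members and lists were chosen with earlier results of these data known. No gene was sought for a pattern like that of a member, since 2 libraries give no pattern. Alternatives were TMM factors (edgeR 4.0.16), size factors (DESeq2 1.42.0) with hits rounded to whole numbers, a pseudocount of 1 hit, totals without organelle loci or without the 20 loci with the most hits, hit minimums of 10 and 20, a fold of 1.5, other lengths, and leaving out each replicate. The ratio step was tested on simulated data. Python 3.11.15, numpy 2.4.6, pandas 2.3.3, statsmodels 0.14.6 and matplotlib 3.10.9 were used.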

Additional observations from a re-analysis of the deposited data

How the results depend on the processing

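The number of members listed in both replicates was 8, and 7 with a hit minimum of 10 or of 20, which removed *ATXR7*. Without either replicate, 8 to 9 members were listed in the one left, and their sum was 190 to 267 HPM. The count of members that differed over 2-fold between the replicates was 2 under TMM, size factors, nuclear totals and a pseudocount of 1 hit, and 5 with a fold of 1.5, against 50.2% of all loci. All 8 ratios of CC2 to CC1 kept their sign and their side of 2-fold under TMM, size factors, nuclear totals and the pseudocount. Without the 20 loci with the most hits in the total, all members listed in both replicates rose, since only the total changed. For example, *ATX1* rose from 43.4 to 52.6 HPM and *ATXR6* from 36.6 to 44.6 HPM. Only *ATXR6*, with its small SD of 1.86 HPM, moved beyond its SD. Without division by length, the values were those in HPM given above, and the order changed. No paired analysis was possible because there is 1 group. Depth limits *ATX5*, *ATXR5* and *ATXR7* most, with 9 to 92 hits where listed.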
